A study of Mus musculus with 2 samples.

Results

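Border-associated macrophages were examined in single-cell RNA sequencing of mouse thalamus, as 81 cell barcodes of 15804 that passed the quality limits. The tissue came from 2 wildtype mice of the inbred strain C57BL/6J, aged 2 months. No treatment was given, so both animals form a single group of the same genotype and age, with 1 library per mouse. Per the labels, papain, protease and dispase were used in a choline chloride solution to free the cells, and the 10x 3′ kit, version 3, gave the libraries. A barcode became a member when it held at least 500 genes, at least 1000 unique molecular identifiers (UMIs, counts of captured transcripts) and at most 15% mitochondrial UMIs. In addition, Mrc1, Pf4, F13a1 and Cd163 had to sum to at least 3 UMIs per 10000, and Csf1r, the colony-stimulating factor receptor of macrophages, had to have at least 1 UMI. Members held at most 3 UMIs of the microglial genes P2ry12 and Siglech together and at most 2 UMIs of the endothelial gene Cldn5. The rule uses measured values, so the levels of these 8 genes in the members are given as a description, with no test. The study has no second condition, and the comparisons set border macrophages against microglia of the same 2 animals and members with high MHC class II transcripts against those with low.

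Border-associated macrophages are the resident macrophages of the surfaces of the brain: the meninges, the choroid plexus and the spaces around vessels that enter the tissue. They share the receptor Csf1r with microglia, the macrophages of the brain tissue itself, and are known for scavenger receptors that take up proteins, lipids and debris from fluid. A subset of them carries MHC class II, the molecules that present peptides to CD4+ T cells, and in mice this subset includes cells that were replaced from blood monocytes.

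The libraries held 163418203 UMIs in 7889 barcodes of mouse 1 and 204839993 UMIs in 12107 barcodes of mouse 2, of which 6366 and 9438 passed, with medians of 18336 and 14974 UMIs. Both libraries shared 36 barcode sequences, and 1 member of mouse 1 and no member of mouse 2 carried one of them. The members were less deep, with a median of 11275 UMIs (1070 to 47043) in the 51 members of mouse 1 and 7617 (1289 to 15099) in the 30 of mouse 2. Microglia, defined by P2ry12 and Siglech, numbered 915 and 557 cells with medians of 13039 and 9863 UMIs. Border macrophages made up 0.801% of the passing barcodes in mouse 1 and 0.318% in mouse 2, with 95% exact binomial limits of 0.597% and 1.05% for mouse 1 and of 0.215% and 0.453% for mouse 2. These intervals cover counting error only, and a share of barcodes also depends on how well cells of the vessels and surfaces came free. Wherever a pair of values is given for a class, mouse 1 precedes mouse 2.

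The ceiling on P2ry12 and Siglech removed more candidates in mouse 1 than in mouse 2. Of the barcodes that met every other condition, it kept 51 of 115 (44.3%) in mouse 1 and 30 of 39 (76.9%) in mouse 2. Just inside the ceiling, at 2 or 3 UMIs of the pair, stood 21 and 5 members. Just outside it, at 4 to 6 UMIs, stood 22 and 8 barcodes, and their median sums of the 4 selecting genes were 90.6 and 78.4 per 10000. In mouse 1 the 64 barcodes above the ceiling were deeper (median 17458 UMIs) than the members, and their median sum of the selecting genes, 106 per 10000, lay above that of the members, 62.6. Their median of P2ry12 and Siglech was 8 UMIs, or 4.30 per 10000, and their median of Tmem119, a gene typical of microglia, was 0. The membrane protein gene Ms4a7, which the rule does not use, had a median of 9.90 per 10000 above the ceiling, against 6.16 in the members, and the scavenger receptor gene Stab1 had 16.8, against 6.89. By these genes the excluded barcodes of mouse 1 resembled the members. A ratio in place of the ceiling, at which the selecting genes had to reach 3 times P2ry12 and Siglech, gave 107 and 38 members, and this setting was chosen after seeing the data. At the lower limit of 3 per 10000, 7 members of mouse 1 and none of mouse 2 had sums between 3 and 10, while 5 and 3 barcodes that met all other conditions had sums between 1 and 3.

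**Figure D1:**
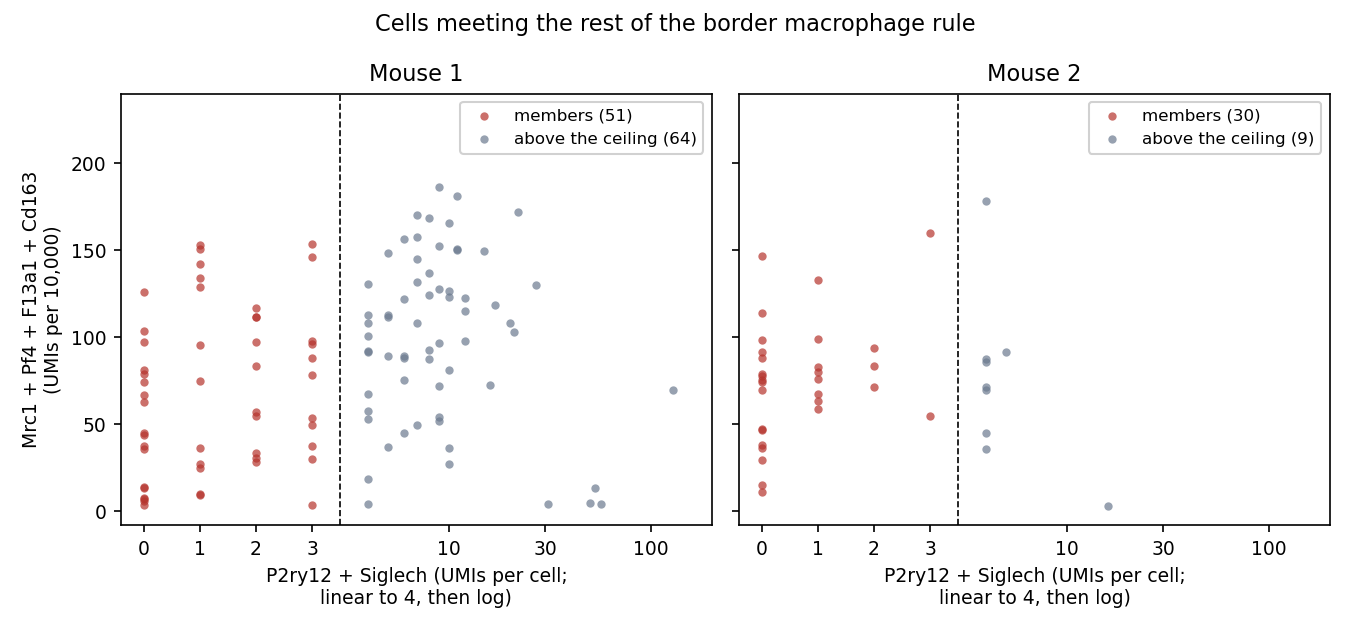
Each point is 1 barcode that met every condition other than the P2ry12 and Siglech ceiling, with the sum of Mrc1, Pf4, F13a1 and Cd163 (UMIs per 10000) against the P2ry12 and Siglech UMIs, for each mouse. The members lie at 3 UMIs or fewer, and the 64 barcodes of mouse 1 and 9 of mouse 2 above that line include many with sums as high as those of the members.

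The marker genes matched the label for most members, and some barcodes of each mouse went against it. Of 18 listed border macrophage markers, 17 had their highest level among 8 cell classes in border macrophages in both mice, the exception being Colec12, which was higher in mural cells. Together these markers reached 223 and 218 UMIs per 10000 in border macrophages, against 11.8 and 8.26 in microglia. The 14 microglial markers reached 16.9 and 11.4 per 10000 in border macrophages, against 174 and 120 in microglia. The rule uses 4 of the 18 border macrophage markers and 2 of the 14 microglial ones, P2ry12 and Siglech. The rule and the microglial gate thus set part of these values, which only describe the label. Tmem119 had 13 UMIs in 11 members of mouse 1 and none in mouse 2. All 4 genes of the selecting sum were detected together in 24 and 18 members, at least 3 of them in 39 and 28, and only 1 in 6 and 2 members.

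In mouse 1, 4 members had the transcripts of blood monocytes. They held 20 to 49 UMIs of Ccr2, the receptor that draws monocytes into tissue, with 8 to 32 UMIs of Ly6c2, 9 to 57 of Plac8 and 359 to 672 of the lysozyme gene Lyz2. They passed the rule through F13a1 (8 to 104 UMIs), with at most 1 UMI of Mrc1 and none of Ms4a7 or of the complement gene C1qb. All 8 listed monocyte genes summed to 9.14 per 10000 in mouse 1, from 7 members, and to 1.33 in mouse 2, from 3 members. In mouse 2 these were Ccr2 and Ace, and the defining genes Ly6c2, Plac8 and Chil3 had no UMI. A further member of mouse 1, with 24916 UMIs and high MHC class II, had 62 UMIs of the dendritic cell gene Cd209a and 13 of Ccr2, with none of Ms4a7, 1 of C1qb and 3 of Apoe. In mouse 2, 3 of the 4 members with high MHC class II held 5 to 17 UMIs of Ccr2 and none of Ms4a7, with 18 to 39 of C1qb. Another 3 members of mouse 1, with 1070 to 2914 UMIs, held no Lyz2 and no Ms4a7, and 2 of them had Tmem119. The parts of these barcodes in the results were measured by leaving out the 10 and 4 members with any UMI of Ccr2, Ly6c2, Plac8, Cd209a or Flt3, a setting chosen after seeing the data.

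Markers of most other cell types were low in the members, while oligodendrocyte transcripts were found in many of them. T and NK cell markers (8 genes) and mast cell markers (4 genes) had no UMI in either mouse, and of 6 neutrophil markers only Csf3r was detected. Dendritic cell markers summed to 3.57 and 1.46 per 10000, B cell markers to 1.70 and 1.10, fibroblast markers to 0.232 and 0.366, and endothelial markers to 0.942 and 0.229. Mural cell markers reached 11.7 per 10000 in mouse 1, against 0.229 in mouse 2. In mouse 1 the median member had 0, only 2 of 51 members reached 10 per 10000, and the highest had 258. Oligodendrocyte transcripts summed to 19.4 and 6.55 per 10000 in border macrophages, against 24.2 and 50.4 in microglia. They reached 10 per 10000 in 18 of 51 and 9 of 30 members, and in 178 of 915 and 96 of 557 microglia. Haemoglobin and related erythroid transcripts summed to 3.27 and 338 per 10000 and reached 10 per 10000 in 8 and 1 members. In mouse 2 they came almost wholly from 1 member with 74.2% haemoglobin UMIs. Ribosomal protein genes took 11.0% and 9.36% of UMIs in border macrophages, against 6.87% and 7.91% in microglia, and the median mitochondrial share was 4.63% and 3.03%, against 1.43% and 2.19%. The part of these shares in the results was not tested beyond the alternatives named beside them.

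The selecting genes varied widely from member to member. Mrc1, the mannose receptor CD206 (chr2:14229392-14332057, plus strand, GRCm38), had a lowest, median and highest level of 0, 24.8 and 94.5 UMIs per 10000 over the 51 members of mouse 1, and of 0, 29.0 and 91.0 over the 30 of mouse 2. It was detected in 43 and 29 members. Pf4, the chemokine platelet factor 4 (chr5:90772435-90773383, plus strand), ran at 0, 15.3 and 89.8 per 10000 in mouse 1 and 0, 18.2 and 63.1 in mouse 2. The 2 mice thus overlapped over nearly the whole range. F13a1, the A subunit of coagulation factor XIII (chr13:36867178-37050244, minus strand), ran at 0, 14.2 and 57.1 in mouse 1 and 0, 15.7 and 59.6 in mouse 2. Cd163, the haemoglobin scavenger receptor (chr6:124304656-124330527, plus strand), was the sparsest of the 4, at 0, 0.531 and 24.8 in 26 detected members of mouse 1 and 0, 3.54 and 32.0 in 20 of mouse 2. In the fit across classes these genes had 2775 and 3194 CPM in border macrophages, against 6.37 and 6.40 CPM in microglia (Mrc1), and 403 and 572 CPM in border macrophages, against 0.268 and 0 CPM in microglia (Cd163), which restates the rule.

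Among genes outside the rule, Lyz2 and Apoe were found in nearly every member, and others marked only some of them. Lyz2, the lysozyme of myeloid cells (chr10:117277331-117282321, minus strand), had a lowest, median and highest level of 0, 52.7 and 349 per 10000 in mouse 1 and 10.6, 56.2 and 126 in mouse 2, with UMIs in 48 and 30 members. The highest level of mouse 1 belonged to 1 of the 4 members with monocyte transcripts. Each of these 4 held 359 to 672 of the 4985 Lyz2 UMIs of mouse 1. Apoe, the lipid carrier apolipoprotein E (chr7:19696109-19699188, minus strand), ran at 0, 298 and 664 in mouse 1 and 112, 323 and 749 in mouse 2. Ms4a7 was detected in 39 and 26 members, the carbonyl reductase gene Cbr2 in 37 and 21, Stab1 in 37 and 28, and the endocytic adaptor gene Dab2 in 44 and 28. Lyve1, the hyaluronan receptor of perivascular and lymphatic cells, was found in 20 and 8 members, and Folr2, the folate receptor beta, in 19 and 9. Ccl7, a monocyte-attracting chemokine, was found in 13 and 8, and the lectin genes Clec10a and Mgl2 in 29 and 15 and in 27 and 18 members. Lyz2 and Apoe were thus detected in most members, at levels that varied widely, and Lyve1, Folr2 and Ccl7 in fewer.

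To set these shares beside the background of free RNA, each cell was thinned to 3000 UMIs, which kept 41 and 24 members. Mrc1 was then detected in 85.4% and 100% of members, against 2.33% and 1.33% of microglia, and in 0.333% and 0% of 300 oligodendrocytes per mouse. Mrc1 and P2ry12 enter the gates of both members and microglia, so their contrasts between these classes follow from the selection and only describe it. Lyz2 was detected in 97.6% and 100% of members, against 24.7% and 22.7% of microglia and 1.67% and 0% of oligodendrocytes. Ms4a7 was detected in 73.2% and 75% of members and Lyve1 in 31.7% and 25%, and both in none of the microglia or oligodendrocytes drawn. Apoe was detected in 92.7% and 100% of members, against 38% and 22% of microglia. Its share in oligodendrocytes, 73.3% and 68.7%, lay above that in microglia. The excluded gene P2ry12 was still detected in 29.3% and 12.5% of members, against 98% and 96.7% of microglia and 2% and 0.333% of oligodendrocytes.

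To compare border macrophages with microglia, raw UMIs were summed per mouse and class and fitted with edgeR's quasi-likelihood test over 8 classes, with mouse as a block. Calls needed an adjusted p (Benjamini-Hochberg) under 0.05 with a log2 fold change of 1 or more in either direction. Log2 fold changes are given as estimate ± SE, positive where border macrophages were higher. Levels are given in CPM, the TMM-scaled count rate of each class sum. Of 17973 genes outside the rule, 842 rose (4.68%) and 979 fell (5.45%) in border macrophages relative to microglia, and 1762 of these 1821 moved the same way in each mouse on its own. The median log2 fold change of all these genes was -0.32. Without the members that had blood myeloid transcripts, 1653 genes were called, of which 629 rose. With the ratio in place of the ceiling, 2086 genes were called, and 1480 of them were among the 1821. Both classes were chosen by genes that go along with many others, which makes the p-values smaller than they would otherwise be, and the spread rests on 2 animals.

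The marker lists followed the rule and only describe the label. Of 14 border macrophage markers outside the rule, 13 were called higher and the transcription factor gene Maf (1.76 ± 0.74) was not, and of 12 microglial markers, 11 were called lower and Fcrls (-0.46 ± 0.50) was not. Cbr2 had 403 and 347 CPM in border macrophages, against 0.402 and 0 CPM in microglia, a log2 fold change of 11.16 ± 1.34. Tmem119 had 19.3 and 0 CPM in border macrophages, against 796 and 743 CPM in microglia (-6.28 ± 0.90). The secreted glycoprotein gene Olfml3 had 17.8 and 0 CPM in border macrophages, against 632 and 439.7 CPM in microglia (-5.64 ± 0.67). Adjusted p ran from 1.63e-05 to 0.000211 for the 4 border macrophage markers with the greatest change among those that met the limits on level and UMIs for named genes, and from 3.43e-06 to 0.000775 for those of microglia.

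**Figure D2:**
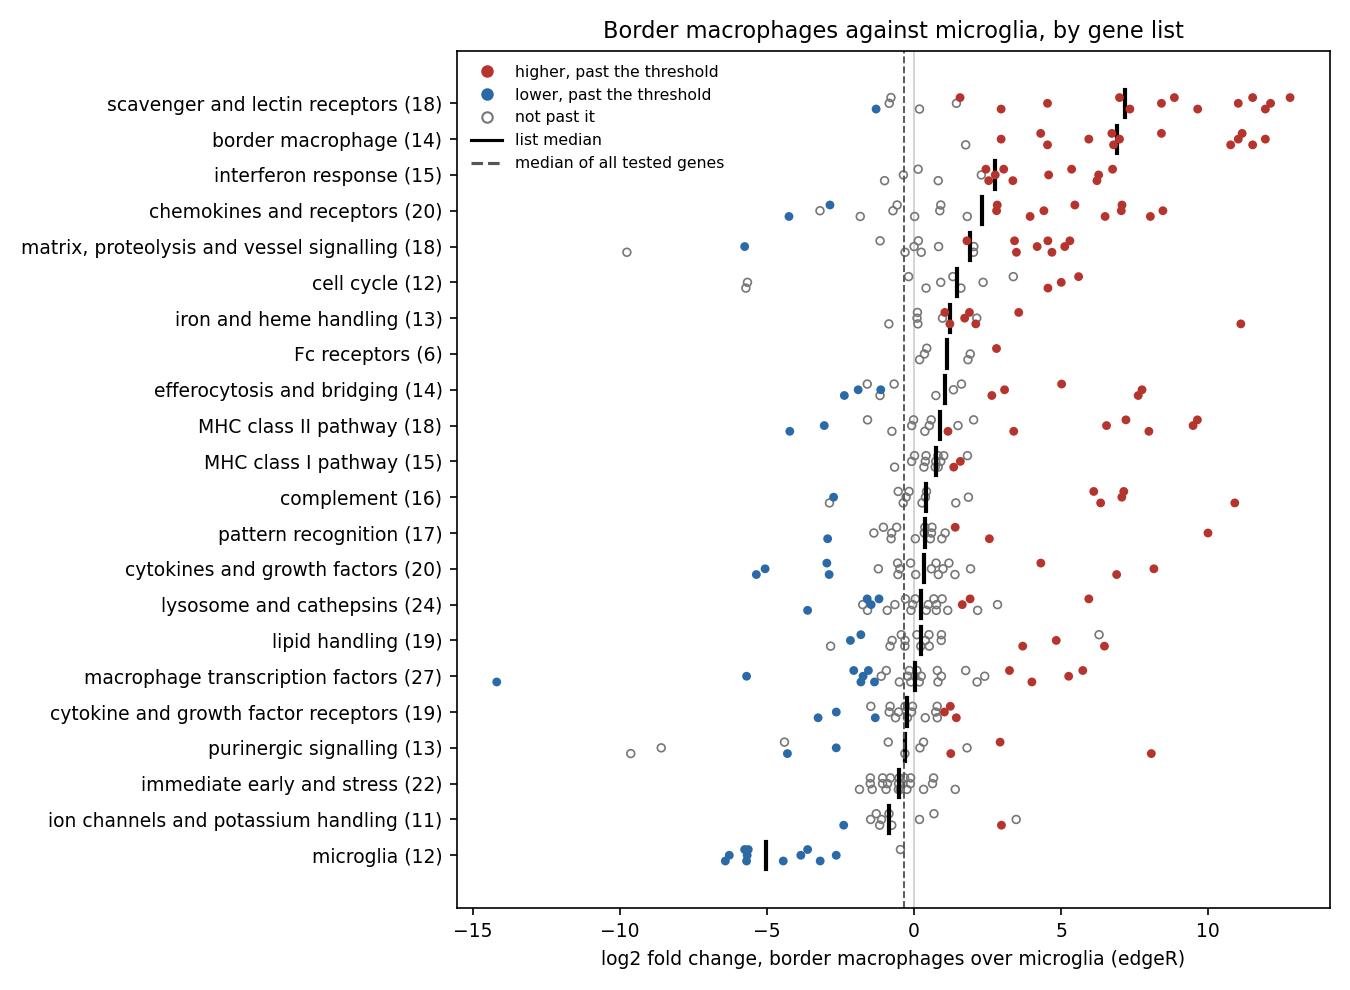
Log2 fold change of border macrophages over microglia for every counted gene of 22 gene lists, 1 point per gene, with lists sorted by their median and called genes marked. The border macrophage markers and scavenger receptors, which share genes, lie at the upper end. The microglial markers lie at the lower end, and the immediate early list holds no called gene.

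Scavenger and lectin receptors, the uptake machinery of these macrophages, had the highest share of called genes among the functional lists. Outside the rule, this list shares Stab1, Lyve1, Siglec1, Clec10a, Cd209f, Cd209g and Colec12 with the border macrophage markers. These shared genes all rose, so part of the share only describes the label. Of 18 counted genes, 13 rose, 1 fell and 4 did not pass, with a median log2 fold change of 7.17, or 6.77 with genes at 0 UMIs set to a bound of 3 UMIs. Cd36, the scavenger receptor for oxidised lipids and fatty acids, had 215 and 741 CPM in border macrophages, against 0.469 and 0.640 CPM in microglia (9.65 ± 1.05). Msr1, the class A scavenger receptor for modified lipoproteins, had 218 and 217 CPM in border macrophages, against 1.54 and 1.12 CPM in microglia (7.34 ± 0.91). Clec12a, an inhibitory lectin receptor for uric acid crystals, had 91.9 and 134 CPM in border macrophages, against 0.402 and 0 CPM in microglia (8.85 ± 0.97). Microglia held almost none of these transcripts. The collectin gene Colec12 had 322 and 178 CPM in border macrophages, against 6.43 and 14.7 CPM in microglia (4.54 ± 0.54), but mural cells were higher still, at 695 and 477 CPM. Several lectins were absent or nearly so from microglia, and they are given as UMIs: Mgl2 had 312 and 142 UMIs in border macrophages, against 2 and 0 in microglia, Clec4n had 124 and 48 UMIs in border macrophages, against 1 and 0 in microglia, and Lyve1 had 153 and 32 UMIs in border macrophages, against 0 and 1 in microglia. Only Lrp1, a large endocytic receptor of many cell types, fell (-1.29 ± 0.31). Over all tested genes 4.68% rose and 5.45% fell, and 1 fall of 18 is near that share. Scarb1, Scarb2, Clec4a2 and Olr1 did not pass. Adjusted p for Cd36, Msr1, Clec12a and Colec12 ran from 8.25e-05 to 0.000418.

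Genes for the clearance of dying cells were split between the classes. Of 14 counted genes, 5 rose, 3 fell and 6 did not pass, with a median of 1.04. Axl, a receptor tyrosine kinase for dying cells, had 69.7 and 30.3 CPM in border macrophages, against 4.96 and 8.47 CPM in microglia (3.08 ± 0.42), and Gas6, its bridging ligand, had 402 and 390.1 CPM in border macrophages, against 58.2 and 68.8 CPM in microglia (2.65 ± 0.33). A receptor and its ligand thus both rose. Cd300ld, an activating receptor of myeloid cells, had 80.1 and 99.7 CPM in border macrophages, against 0.938 and 5.60 CPM in microglia (5.02 ± 0.93). Timd4, a phosphatidylserine receptor of resident macrophages, had 22 and 1 UMIs in border macrophages, against 1 and 1 in microglia, and Anxa1 had 22 and 0 UMIs in border macrophages, against 2 and 0 in microglia. The integrin gene Itgb5 had 188 and 152 CPM in border macrophages, against 959 and 808 CPM in microglia (-2.37 ± 0.33), and Itgav (-1.90) and the bridging factor gene Pros1 (-1.13) also fell. The related kinase gene Mertk (-1.59 ± 0.64) did not pass. Adjusted p for Axl, Gas6, Cd300ld and Itgb5 ran from 7.76e-05 to 0.00394.

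Among Fc receptors, which bind antibodies, 1 of 6 passed. Only Fcgrt, the neonatal Fc receptor that recycles antibody and albumin, rose, with 265 and 221 CPM in border macrophages, against 33.0 and 35.2 CPM in microglia (2.80 ± 0.44, adjusted p = 0.00101). Endothelial cells had 275 and 267 CPM of Fcgrt. Fcgr1 (0.19 ± 0.52), Fcgr2b (1.83 ± 0.67), Fcgr3 (0.36 ± 0.51), Fcgr4 (1.91 ± 0.71) and Fcer1g (0.43 ± 0.60) did not pass. All 5 had their highest level among the 8 classes in border macrophages in both mice.

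In lipid handling, Apoe set border macrophages apart. Apoe had 25856 and 29379.6 CPM in border macrophages, against 416 and 225 CPM in microglia (6.48 ± 0.59). Its level in border macrophages also exceeded that in astrocytes, the usual brain source, which held 4974 and 5392 CPM. Pltp, the phospholipid transfer protein, had 265 and 338 CPM in border macrophages, against 10.3 and 10.9 CPM in microglia (4.84 ± 0.70), and Plin2, the coat protein of lipid droplets, had 200.2 and 182 CPM in border macrophages, against 19.97 and 9.91 CPM in microglia (3.70 ± 0.31). Trem2, a lipid receptor of microglia, had 262 and 225 CPM in border macrophages, against 1120.3 and 939 CPM in microglia (-2.16 ± 0.61), and the cyclooxygenase gene Ptgs1 (-1.81) fell as well. Of 19 genes, 3 rose, 2 fell and 14 did not pass, with a median of 0.23, against -0.32 over all tested genes. The cholesterol exporter genes Abca1 (0.93 ± 0.21) and Abcg1 (-0.43 ± 0.28) and the lipase gene Lpl (-0.74 ± 0.53) did not pass. Adjusted p for Apoe, Pltp, Plin2 and Trem2 ran from 2.91e-06 to 0.0418. Trem2 lost its call without the mouse block (adjusted p = 0.211) and with the ratio rule (adjusted p = 0.0555).

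Genes of iron and heme handling rose at several steps of heme breakdown and iron storage. Of 13 genes, 7 rose, 0 fell and 6 did not pass, with a median of 1.22. Hmox1, heme oxygenase 1, which opens the heme ring, had 84.5 and 108 CPM in border macrophages, against 28.1 and 29.3 CPM in microglia (1.72 ± 0.34). The biliverdin reductases, which act on its product, followed: Blvrb had 399 and 516 CPM in border macrophages, against 39.7 and 37.3 CPM in microglia (3.56 ± 0.25) and Blvra had 99.4 and 95.3 CPM in border macrophages, against 28.5 and 16.6 CPM in microglia (2.10 ± 0.29). Ferritin, the iron store, rose in its light chain gene Ftl1, with 5082 and 5369.7 CPM in border macrophages, against 1139 and 1664 CPM in microglia (1.89 ± 0.35), and in its heavy chain gene Fth1 (1.05). Spic, a transcription factor of red pulp macrophages, had 9 and 5 UMIs in border macrophages, against 0 and 0 in microglia. The iron exporter gene Slc40a1, ferroportin (2.13 ± 0.69), and the transferrin receptor gene Tfrc (0.97 ± 0.49) did not pass. Adjusted p for Hmox1, Blvrb, Blvra and Ftl1 ran from 6.87e-07 to 0.00376. The haemoglobin-rich member of mouse 2 was among those removed in an alternative without members holding other cells' markers, and all 4 genes kept their calls there.

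Lysosomal genes mostly did not pass. Of 24 genes, 3 rose, 4 fell and 17 did not pass, with a median of 0.23. Lyz2 had 7393 and 5435 CPM in border macrophages, against 91.7 and 97.9 CPM in microglia (5.95 ± 0.94), the tetraspanin gene Cd63 had 623 and 663 CPM in border macrophages, against 201 and 146 CPM in microglia (1.91 ± 0.38), and the protease gene Ctsb had 2545 and 2496 CPM in border macrophages, against 785 and 832 CPM in microglia (1.64 ± 0.28). Ctsd (-1.46), Ctsf (-1.59) and Lgmn (-1.19) fell, so within the cathepsins the direction differed by gene. Adjusted p for Lyz2, Cd63 and Ctsb ran from 0.00102 to 0.00390. Much of the Lyz2 level in mouse 1 came from the 4 members with monocyte transcripts, which held 359 to 672 of its 4985 UMIs each. Lyz2 kept its call without the members that held blood myeloid transcripts.

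The 4 core MHC class II genes rose, and their transcripts came almost wholly from 13 of the 81 members. H2-Aa and H2-Ab1 encode the chains of the I-A molecule, H2-Eb1 encodes the beta chain of I-E, and Cd74 encodes the invariant chain that holds their groove until a peptide is loaded. H2-Aa had 1348 and 1287 CPM in border macrophages, against 2.28 and 1.12 CPM in microglia (9.64 ± 0.73). H2-Ab1 had 1376 and 1252 CPM in border macrophages, against 6.90 and 3.68 CPM in microglia (7.99 ± 0.47), H2-Eb1 had 1139 and 1617 CPM in border macrophages, against 1.68 and 2.24 CPM in microglia (9.49 ± 0.48) and Cd74 had 3403 and 2566 CPM in border macrophages, against 16.6 and 44.4 CPM in microglia (6.55 ± 0.82). All 4 were low in microglia of both mice. Over the 18 counted genes of the pathway, 7 rose, 2 fell and 9 did not pass, with a median of 0.87. Ciita, the master activator of these genes, rose on few UMIs, with 21 and 11 UMIs in border macrophages, against 3 and 2 in microglia (7.21 ± 0.90), and the costimulatory receptor gene Cd40 (3.39) and the lysosomal reductase gene Ifi30 (1.16) rose too. H2-Oa (-4.22) and H2-Ob (-3.05), which encode an inhibitor of peptide loading, fell. Without the mouse block no gene of the pathway was called lower. With DESeq2's Wald test, and at the 5% mitochondrial limit, 1 was. The peptide loading genes H2-DMa (0.59 ± 0.27) and H2-DMb1 (1.496 ± 0.48) and the costimulatory genes Cd80 (-0.08 ± 0.40) and Cd86 (-0.01 ± 0.61) did not pass. Adjusted p for H2-Aa, H2-Ab1, H2-Eb1 and Cd74 ran from 5.79e-08 to 0.000270.

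Few MHC class I genes passed. Of 15 genes, 2 rose, 0 fell and 13 did not pass, with a median of 0.74. H2-D1, a classical class I heavy chain, had 968 and 732 CPM in border macrophages, against 217 and 338 CPM in microglia (1.58 ± 0.31), and Psmb9, a subunit of the immunoproteasome, had 90.5 and 69.3 CPM in border macrophages, against 38.3 and 24.5 CPM in microglia (1.35 ± 0.35), with adjusted p from 0.00335 to 0.0218. Psmb9 lost its call without the members that held blood myeloid transcripts (adjusted p = 0.113) and without the mouse block (0.0629). Class I genes share close sequence, so reads may be split between them.

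Most genes of the interferon response list rose in border macrophages of these untreated mice in the main fit. Of 15 genes, 10 rose, 0 fell and 5 did not pass, with a median of 2.76. The count that rose was 7 without the mouse block, 7 at the 5% mitochondrial limit and 8 without the blood myeloid members. Ifitm3, which blocks the entry of viruses, had 1467 and 563 CPM in border macrophages, against 20.1 and 6.40 CPM in microglia (6.28 ± 0.96), and its neighbour Ifitm2 had 593 and 347 CPM in border macrophages, against 5.96 and 3.04 CPM in microglia (6.75 ± 0.37). Ifi27l2a had 1077 and 260.0 CPM in border macrophages, against 16.3 and 2.08 CPM in microglia (6.22 ± 0.49), and Ifi204, a DNA sensor of the same response, had 162 and 165 CPM in border macrophages, against 6.70 and 2.08 CPM in microglia (5.36 ± 0.63). Ifitm3 and Ifi27l2a were higher in mouse 1 than in mouse 2 in both classes, and for none of the 4 did the sums of the classes overlap. Endothelial cells also held Ifitm3, at 1103 and 669.6 CPM. Isg15 (2.76), Oasl2 (4.58), Bst2 (3.05), Rsad2 (3.36), Ifit3 (2.54) and Usp18 (2.45) rose as well, whereas Irf1 (-0.36 ± 0.41) and Ifit1 (2.29 ± 0.87) did not pass. Adjusted p for Ifitm3, Ifitm2, Ifi27l2a and Ifi204 ran from 5.79e-08 to 0.00131.

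In the complement system, the initiating C1q genes did not pass while other members rose. Of 16 genes, 5 rose, 1 fell and 10 did not pass, with a median of 0.41, or 0.92 with genes at 0 UMIs set to their bound. C1qb had 2935 and 2301 CPM in border macrophages, against 3666 and 3578 CPM in microglia (-0.54 ± 0.66), and C1qa (-0.27 ± 0.69) and C1qc (-0.17 ± 0.66) did not pass either. Cfp, properdin, which stabilises the alternative pathway, had 254 and 86.7 CPM in border macrophages, against 0.938 and 1.76 CPM in microglia (7.14 ± 0.50). C4b had 147 and 69.3 CPM in border macrophages, against 0.938 and 1.92 CPM in microglia (6.35 ± 0.64). C3 (18 and 0 UMIs in border macrophages, against 2 and 3 in microglia) and Cd55 (14 and 9 UMIs in border macrophages, against 3 and 1 in microglia) rose on few UMIs, C3 in mouse 1 alone, and Vsig4, a complement receptor of resident macrophages, had 8 and 4 UMIs in border macrophages, against 0 and 0 in microglia. Itgam, the CD11b integrin, had 96.4 and 65.0 CPM in border macrophages, against 455 and 546 CPM in microglia (-2.73 ± 0.48). This 1 fall of 16 genes is near the 5.45% that fell over all tested genes. Adjusted p for Cfp, C4b and Itgam ran from 6.99e-07 to 0.00242.

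Chemokine genes were among the broadest differences. Of 20 genes outside the rule, 10 rose, 2 fell and 8 did not pass, with a median of 2.31. Ccl7 had 289 and 529 CPM in border macrophages, against 0.469 and 3.36 CPM in microglia (8.04 ± 1.21), and Ccl24, an attractant of eosinophils, had 194 and 732 CPM in border macrophages, against 3.35 and 3.04 CPM in microglia (7.05 ± 0.89). Cxcl1, an attractant of neutrophils, had 1.48 and 303 CPM in border macrophages, against 0 and 2.88 CPM in microglia (6.50 ± 1.55), but it was not called by DESeq2's Wald test (adjusted p = 0.0615) or without the mouse block (0.0953). Cxcl1 was found almost only in mouse 2, where immediate early genes took the larger share of UMIs in both classes, and the part of that share in the result was not tested. Ccl2 (2.83), Ccl12 (2.81) and Cxcl2 (3.95) rose, and Ccl8 had 34 and 4 UMIs in border macrophages, against 1 and 1 in microglia. Ccl3 (-0.72 ± 0.98) and Ccl4 (-1.83 ± 0.89), which microglia are known to make during dissociation, did not pass. Among receptors, Ccr1 (4.42) and Cxcr4 (5.47) rose, and Cx3cr1, the fractalkine receptor of microglia (-4.25), fell. Ccr2 had 313 and 121 CPM in border macrophages, against 2.01 and 1.28 CPM in microglia (7.07 ± 0.71), held by 7 members of mouse 1 and 3 of mouse 2. Leaving out the members with blood myeloid transcripts removes every Ccr2 UMI by construction. Adjusted p for Ccl7, Ccr2, Ccl24 and Cxcl1 ran from 3.06e-05 to 0.0225.

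Cytokines and growth factors split into genes of either class. Of 20 genes, 3 rose, 4 fell and 13 did not pass, with a median of 0.32. Igf1, insulin-like growth factor 1, had 304 and 273 CPM in border macrophages, against 1.74 and 3.68 CPM in microglia (6.89 ± 0.36), with 62.1 and 81.8 CPM in neurons. Bmp2, a bone morphogenetic protein, had 50.4 and 520.1 CPM in border macrophages, against 0.536 and 1.12 CPM in microglia (8.16 ± 0.99), and Pdgfc, a platelet-derived growth factor, had 139 and 117 CPM in border macrophages, against 5.96 and 7.67 CPM in microglia (4.31 ± 0.40). All 3 growth factor genes that rose were low in microglia. Il1a, interleukin 1 alpha, had 2.97 and 17.3 CPM in border macrophages, against 98.4 and 837 CPM in microglia (-5.36 ± 0.74), and Tnf (-2.89), Csf1 (-5.06) and Pdgfb (-2.96) fell too. Il1b (1.39 ± 0.90), Il10 (0.99 ± 1.72) and Tgfb1 (-1.21 ± 0.43) did not pass. Adjusted p for Igf1, Bmp2, Pdgfc and Il1a ran from 5.79e-08 to 0.000485.

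Among 19 cytokine receptors outside the rule, 3 rose, 3 fell and 13 did not pass, with a median of -0.22. Tgfbr1, the signalling receptor for transforming growth factor beta, had 144 and 225 CPM in border macrophages, against 1923 and 1539 CPM in microglia (-3.26 ± 0.33), while its partner Tgfbr2 (-0.22 ± 0.49) did not pass. Csf3r, the receptor for granulocyte colony-stimulating factor, had 77.1 and 21.7 CPM in border macrophages, against 336 and 283 CPM in microglia (-2.64 ± 0.50), and Il6st, the shared receptor of interleukin 6 cytokines, had 74.1 and 34.7 CPM in border macrophages, against 158 and 135 CPM in microglia (-1.32 ± 0.30). Il10rb (1.44 ± 0.36), a chain of the interleukin 10 receptor, rose but missed the threshold without the mouse block (adjusted p = 0.0523). Csf2ra (1.03) and Ifnar1 (1.24) rose close to the fold limit. Adjusted p for Tgfbr1, Csf3r, Il10rb and Il6st ran from 1.29e-05 to 0.0202.

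Among macrophage transcription factors, Sall1 and its relative Sall3 fell, and 4 genes rose. Of 27 genes, 4 rose, 7 fell and 16 did not pass, with a median of 0.03. Sall1, a repressor needed for microglial identity, had 7.41 and 0 CPM in border macrophages, against 311 and 228 CPM in microglia (-5.69 ± 0.56). Sall3 had 0 and 0 UMIs in border macrophages, against 1966 and 790 in microglia. Smad3, an effector of transforming growth factor beta, had 57.8 and 34.7 CPM in border macrophages, against 152 and 255 CPM in microglia (-2.05 ± 0.37). Tfec, a relative of the lysosomal regulator Mitf, had 40.0 and 65.0 CPM in border macrophages, against 2.01 and 0.320 CPM in microglia (5.74 ± 1.09). Pparg, the lipid-sensing nuclear receptor (5.26), Irf7 (3.25) and Runx3 (4.01) rose. Spi1, the PU.1 factor of all macrophages (-0.21 ± 0.36), and Runx1 (0.03 ± 0.70) did not pass. Adjusted p for Tfec, Sall1 and Smad3 ran from 1.12e-05 to 0.00449.

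Most genes of the sensing lists did not pass. Over all tested genes 4.68% rose and 5.45% fell, and the 1 rise and 1 fall among ion channel genes and the 1 fall among pattern recognition genes are near those shares. Of 13 purinergic genes outside the rule, 3 rose, 2 fell and 8 did not pass. Their median was -0.31, or 0.20 with genes at 0 UMIs set to their bound, so its sign is not fixed. Cd38, which breaks down NAD, had 157 and 390.1 CPM in border macrophages, against 1.41 and 0.480 CPM in microglia (8.07 ± 0.92), and P2rx7, an ATP-gated channel, had 405 and 1443 CPM in border macrophages, against 128 and 84.4 CPM in microglia (2.93 ± 0.58). P2rx4 had 128 and 113 CPM in border macrophages, against 56.7 and 44.8 CPM in microglia (1.25 ± 0.24), and P2ry13, a receptor for ADP, had 60.8 and 43.3 CPM in border macrophages, against 356 and 229.9 CPM in microglia (-2.64 ± 0.49), which lost its call without the mouse block (adjusted p = 0.0801). Adjusted p for these 4 ran from 0.000149 to 0.00656. Of 17 pattern recognition genes, 3 rose, 1 fell and 13 did not pass, with a median of 0.37. Ly96, the partner of the endotoxin receptor, had 96.4 and 99.7 CPM in border macrophages, against 49.9 and 24.6 CPM in microglia (1.40 ± 0.32, adjusted p = 0.00968), Tlr5 (2.56) rose and Tlr3 (-2.94) fell. Of 11 ion channel genes, Trpv4 (2.97) rose, and the proton channel gene Hvcn1 fell, with 17.8 and 13.002 CPM in border macrophages, against 55.9 and 101 CPM in microglia (-2.39 ± 0.64). Hvcn1 missed the threshold without the mouse block (adjusted p = 0.0523), and the other 9 did not pass, with a list median of -0.85.

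Matrix and vessel-related genes rose in 8 of 18 cases, 1 fell and 9 did not pass, with a median of 1.91. Over all tested genes 4.68% rose and 5.45% fell, and the 1 fall here is near that share. Igfbp4, a binding protein of insulin-like growth factors, had 279 and 247 CPM in border macrophages, against 14.2 and 14.1 CPM in microglia (4.19 ± 0.53). Fn1, fibronectin, had 119 and 4.33 CPM in border macrophages, against 2.68 and 0.959 CPM in microglia (5.13 ± 0.79), and Cd44, the hyaluronan receptor, had 94.9 and 8.67 CPM in border macrophages, against 1.88 and 2.88 CPM in microglia (4.69 ± 0.91). Without the members that held blood myeloid transcripts, the estimates were 1.32 for Fn1 (adjusted p = 0.616) and 2.42 for Cd44 (adjusted p = 0.187), so the calls of both rested on those members. Sparc, a matrix glycoprotein of microglia, had 48.9 and 13.002 CPM in border macrophages, against 1611 and 1981 CPM in microglia (-5.76 ± 0.49). Sparc is also a listed microglial marker, so its fall only describes the label. Nrp1 (1.80), Ednrb (3.48), Ecm1 (4.55), Tgfbi (3.42) and Mmp9 (5.30) rose. Adjusted p for Sparc, Fn1, Cd44 and Igfbp4 ran from 3.43e-06 to 0.00549.

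Few immediate early and stress genes were called between the classes, depending on the setting, while their share differed between the mice. Of 22 genes, none was called by edgeR's quasi-likelihood test or by DESeq2's Wald test, and 4 had an unadjusted p below 0.05, with a median log2 fold change of -0.52. Other settings gave calls: 1 higher and 8 lower without a gene filter, 1 higher and 4 lower with the 2 classes alone, 2 lower with the ratio rule, 2 lower without the members that held blood myeloid transcripts, and 1 lower each without doublets and with the stricter microglial gate. They made up 0.324% of UMIs in border macrophages of mouse 1 and 1.81% in those of mouse 2, against 0.452% and 2.99% in microglia. Fos was detected in 14 of 51 and 20 of 30 members. The higher share in mouse 2 held in both classes, and the part of dissociation in it was not tested. Of 12 cell cycle genes, 3 rose, 0 fell and 9 did not pass, with a median of 1.46, or 2.84 with genes at 0 UMIs set to their bound. Mki67, a marker of dividing cells, was detected in 3 and 1 members only, with 14 and 12 UMIs in border macrophages, against 0 and 12 in microglia.

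Outside all lists, the genes with the greatest rise among those that met the same limits included Wfdc17 (1250.2 and 2037 CPM in border macrophages, against 5.63 and 0.480 CPM in microglia; 9.48 ± 1.35), a secreted protease inhibitor relative, and Cybb (485 and 797 CPM in border macrophages, against 1.47 and 1.60 CPM in microglia; 8.90 ± 0.82), the catalytic subunit of the phagocyte oxidase. Plbd1 had 111 and 26.0 CPM in border macrophages, against 0.201 and 0.160 CPM in microglia (8.53 ± 0.94), and Serpinb8 had 91.9 and 82.3 CPM in border macrophages, against 0.134 and 0.320 CPM in microglia (8.76 ± 1.28). Ifi203, a relative of Ifi204, had 257 and 152 CPM in border macrophages, against 1.07 and 0 CPM in microglia (8.36 ± 0.70), and the flippase gene Atp8b4 had 69.7 and 47.7 CPM in border macrophages, against 0.335 and 0 CPM in microglia (8.20 ± 1.06). Each of these 6 genes was nearly absent from microglia. By the same limits, those with the greatest fall were Fat3 (-6.09 ± 0.60), Csmd3 (-5.76 ± 0.43), Atp8a2 (-5.58 ± 0.56), Klf12 (-5.55 ± 0.48), Lhfpl2 (-5.31 ± 0.60) and Nav3 (-5.17 ± 0.44). Fat3 had 5.93 and 4.33 CPM in border macrophages, against 413 and 328 CPM in microglia, and Nav3 had 47.5 and 34.7 CPM in border macrophages, against 1709 and 1427 CPM in microglia. Over all 78 named genes, adjusted p from edgeR's quasi-likelihood test ran from 5.79e-08 to 0.0418.

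**Figure D3:**
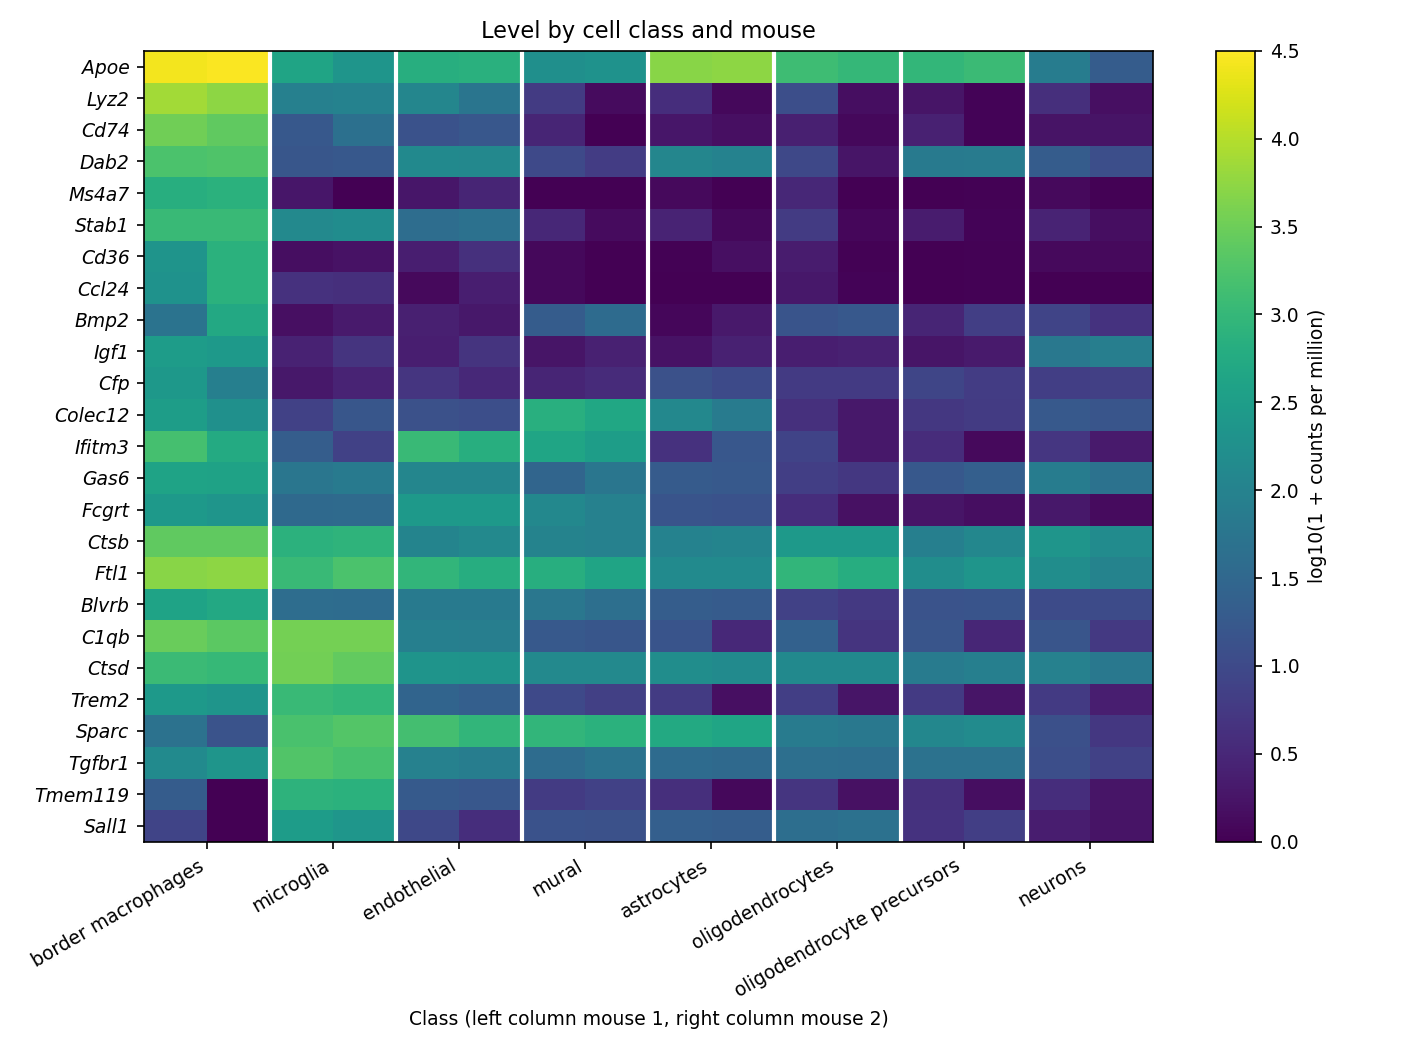
CPM of 25 genes in 8 cell classes, with border macrophages first and both mice side by side, on a log10 colour scale. Brighter means higher. Most of the upper rows are brightest in border macrophages and the lower rows in microglia, with Apoe also high in astrocytes, Colec12 in mural cells and Ifitm3 and Fcgrt in endothelial cells.

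Within the border macrophages, MHC class II transcripts were concentrated in a few members. The sum of H2-Aa, H2-Ab1, H2-Eb1 and Cd74 reached 10 per 10000, the limit for a high member, in 9 of 51 members of mouse 1 (17.6%, exact binomial interval 8.40 to 30.9) and in 4 of 30 of mouse 2 (13.3%, 3.76 to 30.7). The high members ran from 16.7 to 662 per 10000 in mouse 1, with a median of 212, and from 190 to 586 in mouse 2, with a median of 442. Of the low members, 30 and 23 had no UMI of the 4 genes, and the highest reached 7.29 and 3.39 per 10000. Only 3 members of mouse 1 and none of mouse 2 lay between 5 and 20. In mouse 2 the sums left a gap from 3.39 to 190, whereas in mouse 1 they ran across the limit, at 6.99, 7.29, 16.7 and 24.7 per 10000, and limits of 5 and 30 gave 11 and 7 high members. In 7 of the 9 high members of mouse 1 and all 4 of mouse 2 each of H2-Aa, H2-Ab1 and H2-Eb1 was detected, and the other 2 of mouse 1 held almost only Cd74. Median depth was 11275 and 10822.5 UMIs in the high members, against 11601.5 and 6650.5 in the low members.

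The genes of the split are a description of it. H2-Aa had 908 UMIs in the high members and 1 in the low members of mouse 1, and 297 and 0 in those of mouse 2. H2-Eb1 had 768 UMIs in the high members and 0 in the low members of mouse 1, and 373 and 0 in those of mouse 2. H2-Ab1 had 928 UMIs in the high members and 0 in the low members of mouse 1, and 289 and 0 in those of mouse 2. Apart from a single UMI, the low members held none of these 3 transcripts. Cd74 had 2264 UMIs in the high members and 31 in the low members of mouse 1, and 585 and 7 in those of mouse 2.

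Promoters of H2-Aa, H2-Eb1 and H2-DMb1 are shown because class II genes in vertebrates are switched on together through the X, X2 and Y boxes. These boxes are short motifs bound by RFX, CREB and NF-Y factors and read by Ciita. The split genes H2-Ab1 and Cd74 had no window among those searched, and neither had Ciita. The printed windows span 250 bases before to 50 after the start of the gene, from RefSeq on GRCm38.p6, 5′ to 3′ on the strand of the gene, with box letters in capitals. H2-Aa lies at chr17:34287774-34288073 on the minus strand, H2-Eb1 at chr17:34305617-34305916 and H2-DMb1, a peptide loading gene, at chr17:34152941-34153240, both on the plus strand.
H2-Aa: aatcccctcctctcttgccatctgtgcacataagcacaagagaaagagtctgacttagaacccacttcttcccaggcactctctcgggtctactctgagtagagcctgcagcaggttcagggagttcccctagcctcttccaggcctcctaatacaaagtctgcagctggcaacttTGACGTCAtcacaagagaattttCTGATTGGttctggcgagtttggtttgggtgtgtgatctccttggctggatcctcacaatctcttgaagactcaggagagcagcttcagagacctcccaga
H2-Eb1: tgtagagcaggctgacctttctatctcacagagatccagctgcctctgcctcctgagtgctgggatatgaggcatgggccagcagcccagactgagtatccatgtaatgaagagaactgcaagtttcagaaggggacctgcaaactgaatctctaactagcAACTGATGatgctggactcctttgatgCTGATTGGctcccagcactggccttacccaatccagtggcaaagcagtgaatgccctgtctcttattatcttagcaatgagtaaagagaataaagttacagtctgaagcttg
H2-DMb1: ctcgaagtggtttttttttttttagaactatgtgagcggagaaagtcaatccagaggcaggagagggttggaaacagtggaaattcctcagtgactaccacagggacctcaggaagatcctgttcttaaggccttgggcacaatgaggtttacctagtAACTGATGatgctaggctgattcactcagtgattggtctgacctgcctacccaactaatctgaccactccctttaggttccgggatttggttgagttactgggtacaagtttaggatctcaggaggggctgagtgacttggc
The letters searched on both strands were AACNGATG for the X box, TGACGTCA for the X2 box and CTGATTGG for the Y box, a choice made after the sequences were seen, and the motifs do not overlap one another. H2-Aa held the X2 letters 74 bases and the Y letters 51 bases before the start, and H2-Eb1 held the X letters 89 bases and the Y letters 62 bases before it. H2-DMb1 held the X letters 92 bases before its start, in a run of 13 bases, aactgatgatgct, that it shares with H2-Eb1. Only exact letters were counted, so their absence from a window does not show that a box is absent. Of 13 listed pathway genes with a window, 5 held the X letters, 1 the X2 letters and 4 the Y letters, and H2-Eb1 and H2-Eb2 held X and Y together. Over all 32851 windows, 2.32% held the X letters, 1.79% the X2 letters, 4.10% the Y letters and 0.0944% both X and Y. Neither window of H2-DMa held any of them.

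With fewer than 10 high members per mouse, no test was run between high and low members, and genes are described by a rule of size chosen after seeing the data. A gene counted when it was at least 4-fold higher or lower in the CPM of the summed cells in each mouse, with a side at 0 set to 3 UMIs. Of 3388 genes with at least 10 UMIs over both sides and 50 CPM on one side in each mouse, 12 were higher (0.354%) and 11 lower (0.325%) in high members. Of the 12, 3 belong to the class II pathway, from which 6 genes outside the split were considered. H2-DMb1 had 85 UMIs in the high members and 11 in the low members of mouse 1, and 20 and 3 in those of mouse 2, a log2 fold of 4.86 and 4.94. H2-DMa had 83 UMIs in the high members and 31 in the low members of mouse 1, and 23 and 3 in those of mouse 2, with log2 folds of 3.33 and 5.14. Ciita had 18 UMIs in the high members and 3 in the low members of mouse 1, and 11 and 0 in those of mouse 2. The activator and both chains of the peptide loader were thus higher along with the genes that define the split. The lectin gene Mgl2 was higher by 2.74 and 2.91 (log2). The others were Alcam, Arhgap6, Atp8b4, Bcl2a1d, Fam129a, Myo1e, Slc38a1 and Trerf1.

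Among the 11 genes lower in the high members were those of a chemokine, the iron exporter and an eicosanoid enzyme. Ccl7 had 3 UMIs in the high members and 192 in the low members of mouse 1, and 0 and 122 in those of mouse 2. Slc40a1, ferroportin, had 8 UMIs in the high members and 133 in the low members of mouse 1, and 4 and 96 in those of mouse 2, with log2 folds of -2.15 and -2.38. Ltc4s, leukotriene C4 synthase, had 6 UMIs in the high members and 177 in the low members of mouse 1, and 3 and 64 in those of mouse 2. Each of these genes was found mainly in the low members. Cbr2 was lower as well, with log2 folds of -2.09 and -2.05. The other 7 were 5033421B08Rik, Anapc15, Dcaf8, Dnase2a, Gpatch2, Pnpla7 and the haemoglobin gene Hba-a2. Hba-a2 had 1 UMIs in the high members and 26 in the low members of mouse 1, and 0 and 1313 in those of mouse 2, and mouse 2 has the haemoglobin-rich low member. Without the members that held blood myeloid transcripts, 6 genes were higher and 1 lower, so these counts rest on few cells.

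Several marker genes also differed in how many high and low members held them. A UMI of Ccr2, Ly6c2, Plac8, Cd209a or Flt3 was found in 3 and 3 high members and in 7 and 1 low members. These contrasts thus include the barcodes whose markers went against the label. Ccr2 was detected in 3 of 9 high members of mouse 1 and 3 of 4 of mouse 2, against 4 of 42 and 0 of 26 low members, and the 4 low members of mouse 1 were the barcodes with monocyte transcripts. Lyve1 was detected in 1 of 9 and 0 of 4 high members, against 19 of 42 and 8 of 26 low members. Stab1 had a median of 2.79 and 2.47 per 10000 in high members, against 11.8 and 12.04 in low members. Mrc1 was detected in all 13 high members, at medians of 14.5 and 13.3 per 10000, against 26.5 and 30.8 in low members. Mrc1 is a gene of the rule, and 1 high member in each mouse met the rule through Mrc1 alone, so this detection is only a description. C1qb had medians of 47.0 and 25.5 in high members, against 24.0 and 23.3 in low members, and the ranges overlapped. Dendritic cell markers summed to 9.17 and 2.56 per 10000 in high members, against 2.07 and 1.23 in low members. In mouse 1, 62 of the 125 such UMIs in high members were Cd209a in 1 barcode. Of the 10 genes, Xcr1, Ccr7 and Ccl22 had no UMI in either part, and Clec9a and Ccl17 were detected only in high members of mouse 1. Another high member of mouse 1 held 7 UMIs of Flt3, 7 of Cd209a, 18 of Ccr2 and 4 of Ly6c2, with 38 of Mrc1 and 5 of Ms4a7. Without members that held blood myeloid transcripts, high members made up 6 of 41 (14.6%) in mouse 1 and 1 of 26 (3.85%) in mouse 2.

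**Figure D4:**
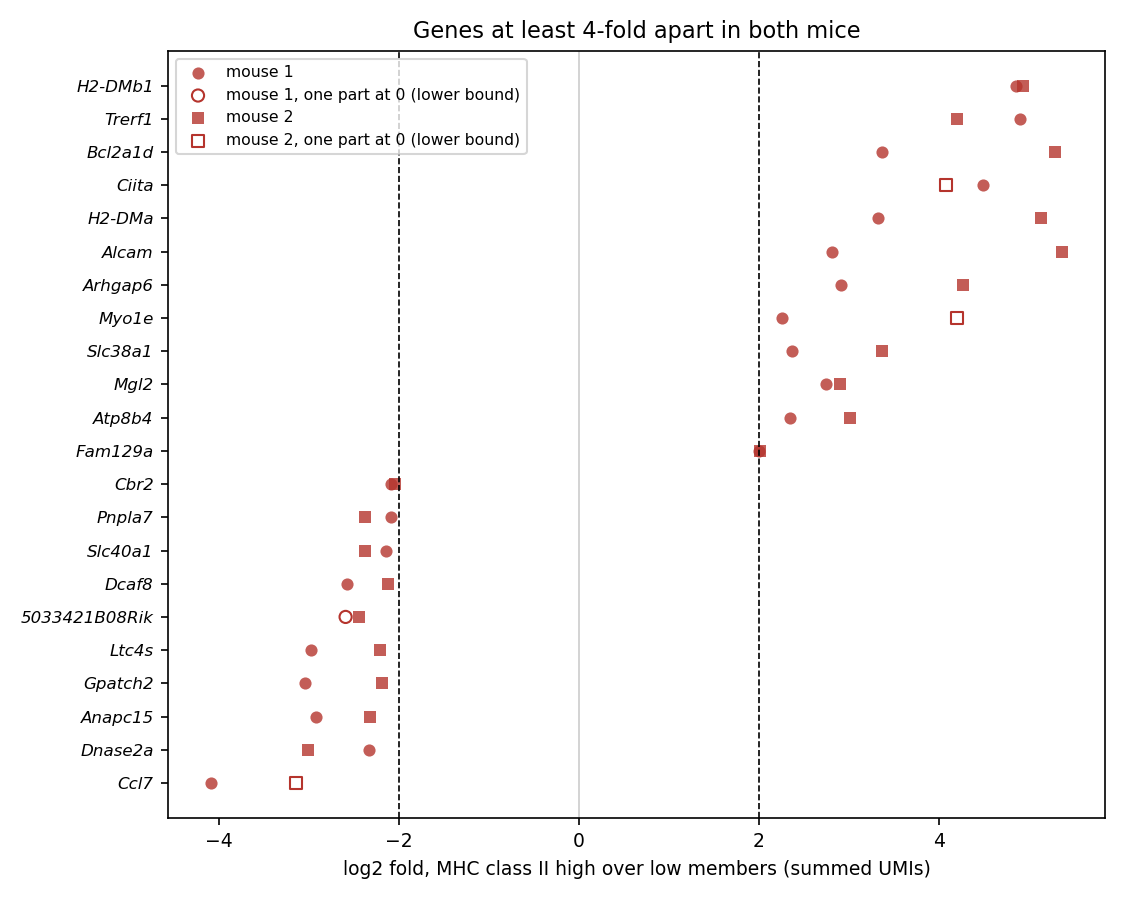
Log2 fold of MHC class II high over low members for 22 of the 23 genes that met the 4-fold rule, all but the haemoglobin gene Hba-a2, 1 point per mouse, with points at a bound marked. H2-DMb1, H2-DMa and Ciita lie above 3 in both mice, and Ccl7, Ltc4s, Slc40a1 and Cbr2 lie below -2.

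Across members with at least 3000 UMIs, not thinned, correlations of levels per 10000 are given as a description over 41 and 24 cells, which share a library in each mouse and differ in depth. The class II sum had a Spearman correlation of 0.29 and 0.71 with Ccr2, -0.39 and -0.40 with Stab1, and -0.42 and -0.10 with Mrc1. Its relation to Stab1 had the same sign and size in both mice, and that to Mrc1 was weak in mouse 2. Ccr2 had a UMI in only 7 and 3 members, and 4 of the 7 in mouse 1 were class II low. Of all 51 and 30 members, 30 and 23 had no class II UMI. The values for Ccr2 thus rest on few cells and many ties. Ms4a7 and Cbr2 went together at 0.56 and 0.31. Mrc1 and Pf4, both used by the rule, did so at 0.68 and 0.16. The immediate early genes Fos and Junb had 0.55 and 0.88.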

How the data were processed

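Single-cell libraries of thalamus from 2 mice were analysed, 1 per mouse. The deposited values are counts of UMIs, not normalized, for each gene in every barcode that the authors' pipeline kept. The submitters' processing notes list Cell Ranger 7.1.0, Seurat 5 and the build mm10, without their roles. Which annotation was used, and whether intron reads and strand were counted, is not stated there. GENCODE vM21 gave coordinates and matched 32158 of 32285 genes.

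Border macrophages and the other classes were chosen by gates on marker genes. Microglia were gated on P2ry12, Siglech, Csf1r and a low border macrophage sum. Each other class needed at least 10 UMIs per 10000 of its own markers and 5 times those of every other class. The members, the rule and the gene lists were chosen with earlier results of these data known, and nothing already seen there is offered as independent support. Scrublet (scanpy 1.11.5, Python 3.11.15) marked 181 and 262 passing barcodes (2.84% and 2.78%), 1 member among them, and these were left in except in an alternative.

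Class sums were made per mouse wherever both mice had 20 or more cells, which gave 16 sums over 8 classes. Fibroblasts, with 5 and 19 cells, were left out of the fit. The fit used edgeR 4.0.16 (R 4.3.3, limma 3.58.1) with TMM scaling and filterByExpr, and its robust quasi-likelihood model had terms for class and mouse. It had 7 residual degrees of freedom, a prior of 8.07 and a common biological coefficient of variation of 0.227. The same 2 animals gave all classes, so mouse pairs the sums and is a block. Benjamini-Hochberg adjustment was over all tested genes. On simulated counts for 18029 genes, 58 of 100 genes changed by a log2 fold of 1.5 and 99 of 100 changed by 3 were recovered in border macrophages against microglia, with 11 false calls. The changed genes were drawn above a minimum expected count, and every gene had the same biological coefficient of variation. No cells were chosen by markers, so the simulation does not cover genes with few UMIs or the selection of the classes.

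Named genes are up to 4 called genes per list with the greatest absolute change, the same direction in each mouse, at least 50 CPM on the higher side and more than 3 UMIs on each side, and up to 6 higher and 6 lower from outside the lists. Members of short counts named beside them were chosen after their values were seen. Some counted list genes are not reported by name here. Shares of cells with a UMI were compared after thinning each cell to 3000 UMIs, which left out 10 and 6 members, with 300 cells drawn per mouse for microglia and oligodendrocytes. Alternatives covered DESeq2 1.42.0, its size factors, the gene filter, the mouse block, the 2 classes alone, doublets, the mitochondrial limit, the score and class II limits, a stricter microglial gate and, chosen after seeing the data, other choices of members. Precision is limited by 51 and 30 members per mouse.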

Additional observations from a re-analysis of the deposited data

How the results depend on the processing

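Border macrophages against microglia gave 1821 calls. Without a gene filter the count was 2765, with 1811 lower. The other fitted alternatives gave 1522 (mitochondrial limit of 5%) to 2086 (the ratio rule), all within 1.5 times. Without the replicate block on the mouse, 1545 genes were called, of which 732 were higher and 813 lower, and 1514 were among the 1821. Calls that kept direction and size in a single mouse, with no test, ranged from 1595 to 1690 in all, from 683 to 789 higher and from 901 to 912 lower. The median of all genes moved by more than 0.1 (log2) with DESeq2's Wald test (0.23), the ratio rule (0.13), the 2 classes alone (0.21), 3000 UMIs as a minimum (-0.10), blood myeloid members left out (-0.15) and the 5% mitochondrial limit (-0.16). Of 78 named genes, 69 kept their call under every alternative run, and 9 lost or reversed it under at least 1. Ccr2 was estimated at -8.51 without the blood myeloid members (adjusted p = 0.488), because that setting removes all its UMIs. The share of border macrophages in mouse 1 was 1.68% under the ratio rule.

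The description of MHC class II high against low members rests on few cells. The 4-fold rule gave 23 genes. Applied anew, it gave 14 with a score minimum of 6 per 10000 (7 higher and 7 lower) and 7 without the blood myeloid members (6 higher and 1 lower), and how many of these are among the 23 was not counted. Single mice gave 242 to 284 genes, of which 84 to 101 were higher and 158 to 183 lower. As no test was run there, the alternatives of scaling, tool, gene filter and block were not run for it. The cause of these shifts was not tested.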
